A study of Homo sapiens with 6 samples.

Results

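The transcription factor NRF2, encoded by NFE2L2, and 9 genes of its antioxidant pathway were followed by RNA-seq in MDA-MB-435 cells with lowered ZCCHC24 (knockdown, KD) and in their controls (CTRL). The 10 genes were taken by a list of names with no threshold on their values, although earlier results of these data were known when the list was made. All 10 were found by symbol among the 57150 genes of the deposited table. SRXN1 was listed on 2 rows, and the row with the higher mean was used. MDA-MB-435 is an established human cancer line that the labels call a breast cancer line, although genotyping later traced it to a melanoma. ZCCHC24 encodes a CCHC-type zinc finger protein that the title links to splicing. Each group had 3 libraries, and both groups were the same line with no other genotype or treatment given. The sources used here do not give how the knockdown was made or whether the libraries came from separate cultures, so a p-value reflects variation among 3 libraries a group, which may be technical. The values are FPKM, fragments scaled by transcript length and by library size, so levels of different genes can be set side by side per length.

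NRF2 is held at a low level by KEAP1, an adaptor that brings it to the CUL3 ubiquitin ligase for degradation. Oxidants and electrophiles modify cysteines of KEAP1, NRF2 then accumulates, pairs with a small MAF protein and binds antioxidant response elements. Its classic targets make glutathione, return glutathione and thioredoxin to their reduced form, detoxify quinones and break down haem. Since NRF2 is controlled largely through protein stability, its mRNA level is not a measure of its activity.

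ZCCHC24 itself was at 1.54, 1.69 and 1.81 FPKM in the KD libraries, against 12.7, 12.3 and 13.2 FPKM in the CTRL libraries. The KD mean was 13.2% of the CTRL mean, and an exact two-sided permutation test gave p = 0.1, its lower limit with 3 libraries a group. The 13343 genes averaging 1 FPKM or more were tested with limma on log2(FPKM + 1), and a gene was called at a Benjamini-Hochberg adjusted p under 0.05. Of the tested genes, 72.4% were called, 37.0% higher and 35.4% lower in KD, and in 75.9% the 2 groups did not overlap, so a call alone sets no gene apart. Pearson's r over tested genes was 0.986 to 0.988 within a group and 0.927 to 0.932 between a KD and a CTRL library. The column sums were 681922 to 696942 FPKM in KD and 717545 to 733644 FPKM in CTRL. Of 8 melanocyte markers, all were tested and 7 were lower in KD, with a summed level of 1486 to 1551 FPKM in KD and 2152 to 2253 FPKM in CTRL. The 10 breast epithelial markers summed to 142 to 152 FPKM in KD and 100 to 120 FPKM in CTRL. KRT5 was listed at 0 in every library, and only 6 markers were tested. Of these 6, 2 were higher in KD, 0 were lower and 4 were not called, with a median log2 change of -0.12. The 2 were KRT8 (mean 44.8 FPKM in KD, 27.5 FPKM in CTRL) and KRT18 (90.8 and 70.4 FPKM), which made up most of the sum. The melanocyte markers thus had the far higher summed level, although the labels name breast tissue, and the part of these marker shifts in the results below was not tested. In bulk RNA, a smaller number of cells of a kind and less RNA per cell cannot be told apart.

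All 10 genes passed the filter on low values. Of these, 4 were higher in KD (NFE2L2, HMOX1, TXNRD1 and GCLM), 2 were lower (GCLC and GSR) and 4 were not called (KEAP1, NQO1, SRXN1 and PRDX1). The 6 calls are 60% of the 10 genes, below the 72.4% called among all tested genes, and the groups did not overlap for 8 of 10, a share close to the 75.9% of all tested genes. HMOX1 had the largest change, 1.07 on the log2 scale, and it alone of the 10 passed a change of 1. The median change of the 10 was 0.07, against 0.01 over all tested genes. The split into rises and falls depended on the scaling between libraries, since the 10 genes gave 6 rises and 0 falls once each library was rescaled to a common sum of 1000000. The calls of NFE2L2, HMOX1, TXNRD1 and GCLM held in each of the 14 refits.

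**Figure D1:**
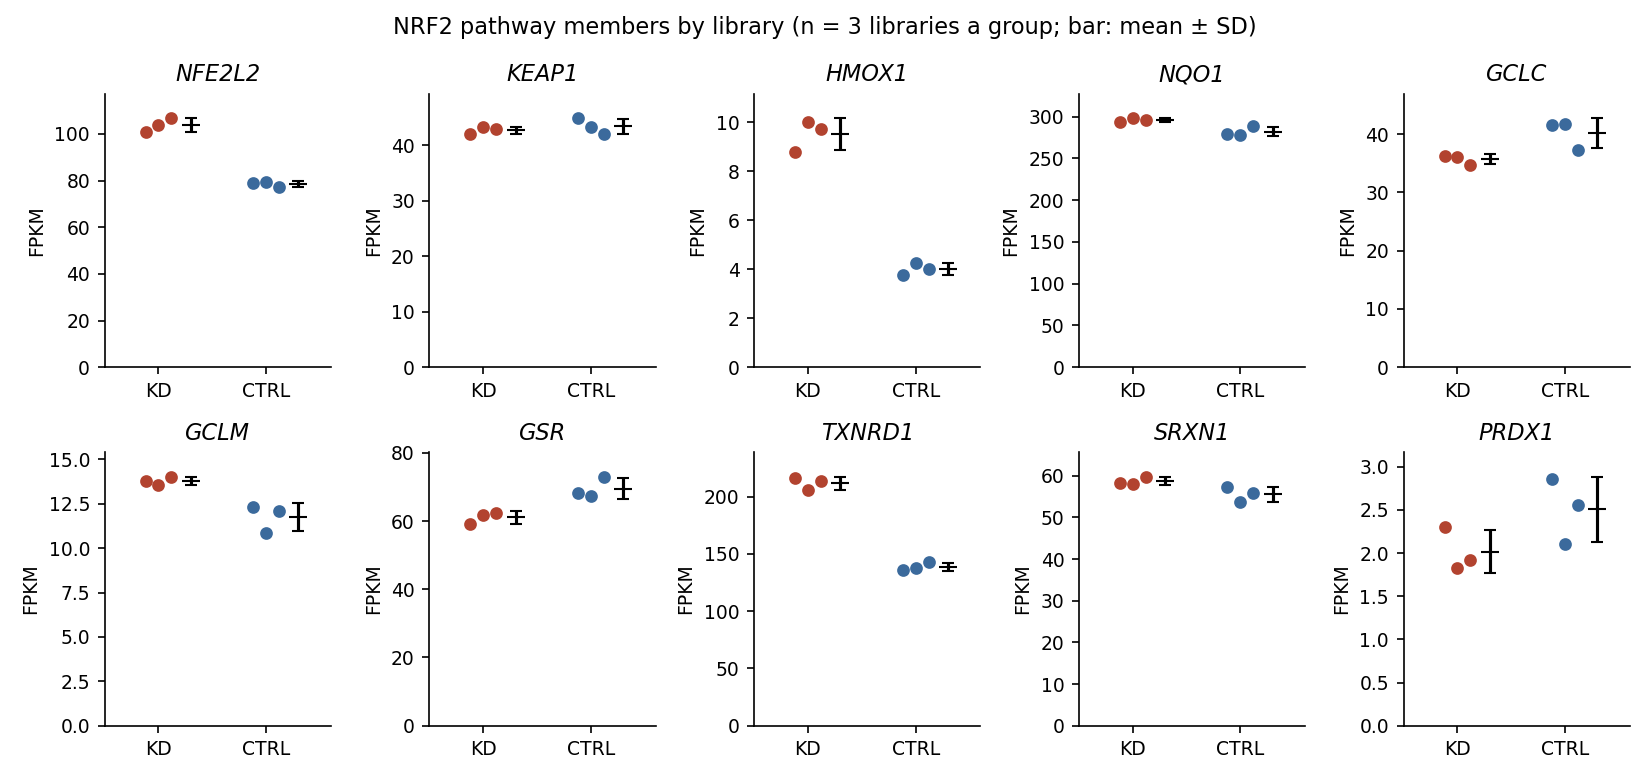
FPKM of each of the 10 genes in the 3 KD libraries (left, red) and the 3 CTRL libraries (right, blue), each panel with its own axis from 0; black bars are the mean ± SD. HMOX1, TXNRD1 and NFE2L2 show wide gaps between the groups, while the values of KEAP1 and PRDX1 overlap.

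NFE2L2, the gene of NRF2 itself, was higher after knockdown, whereas KEAP1, its inhibitor, showed no detected difference. NFE2L2 (ENSG00000116044, hg19 locus chr2:178092322-178408564) was at 101, 104 and 107 FPKM in KD, against 79.0, 79.5 and 77.1 FPKM in CTRL. All KD libraries lay above all CTRL libraries, and the log2 change was 0.40 ± 0.04 (SE; limma adjusted p 2.7e-05). The change was of ordinary size in these data, as 50.8% of tested genes changed by more in either direction. The locus is listed for 8 genes, among them AGPS and DNAJC19P5, so it is wider than NFE2L2. DNAJC19P5 was higher in KD, at 13.1 ± 0.849 FPKM, against 2.203 ± 0.854 FPKM in CTRL. AGPS was lower in KD, at 12.5 ± 1.42 FPKM, against 16.98 ± 0.689 FPKM in CTRL. Both are named here after their values were seen. Whether reads were shared between NFE2L2 and these neighbours was not tested. KEAP1 (ENSG00000079999, hg19 chr19:10596795-10614417) was at 42.0, 43.3 and 42.9 FPKM in KD, against 44.9, 43.3 and 42.0 FPKM in CTRL. Its values overlapped, with a log2 change of -0.022 ± 0.042 and a limma adjusted p of 0.65. The sign of that difference turned under both scaling alternatives, so no direction is given for KEAP1.

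Because FPKM is per length, NFE2L2 and KEAP1 can be compared within a library. The ratio of NFE2L2 to KEAP1 was 2.41, 2.40 and 2.49 in KD, against 1.76, 1.84 and 1.83 in CTRL. It averaged 2.43 ± 0.05 in KD and 1.81 ± 0.04 in CTRL (SD, n = 3 each; exact two-sided permutation p = 0.1, the smallest possible, and 0.133 adjusted over the 4 ratios computed). Such a ratio does not depend on the scaling between libraries. The KD ratios were all above the CTRL ratios.

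BACH1, a repressor that occupies the same response elements and is best known for silencing HMOX1, rose more than NFE2L2. It was at 45.1, 42.6 and 37.2 FPKM in KD, against 17.2, 18.8 and 19.7 FPKM in CTRL, a log2 change of 1.12 ± 0.08 with a limma adjusted p of 5.4e-06. The ratio of NFE2L2 to BACH1 was therefore lower in KD, at 2.24, 2.44 and 2.87, against 4.58, 4.22 and 3.92 in CTRL (exact two-sided permutation p = 0.1; 0.133 adjusted over the 4 ratios). These ratios did not overlap between the groups. Among the small MAF proteins, the shared DNA-binding partners of NRF2 and BACH1, 2 rose and 1 fell. MAFF averaged 151 ± 1.67 FPKM in KD and 322 ± 14.6 FPKM in CTRL (log2 change -1.08 ± 0.04, limma adjusted p 2.5e-07). MAFK averaged 12.5 ± 0.184 FPKM in KD and 6.39 ± 0.432 FPKM in CTRL (log2 change 0.87 ± 0.06, limma adjusted p 6.8e-06). MAFG, named after its values were seen, averaged 32.9 ± 0.613 FPKM in KD and 23.3 ± 0.862 FPKM in CTRL (log2 change 0.48 ± 0.05, limma adjusted p 3.3e-05). Of the 16 tested regulators and partners of NRF2, 12 rose, 2 fell and 2 were not called. That is 75% higher and 12.5% lower, against 37.0% and 35.4% of all tested genes. Their median log2 change was 0.37, against 0.01 over all tested genes. The list holds genes that act against NRF2, such as BACH1, beside its small MAF partners. These shares therefore give no direction for NRF2 activity. CUL3, which degrades NRF2 together with KEAP1, was among the rises at 56.3 ± 2.58 FPKM in KD and 41.9 ± 1.56 FPKM in CTRL. Its log2 change was 0.42 ± 0.05 (limma adjusted p 0.00011), and 49.1% of tested genes changed by more in either direction. In the same list RBX1 was not called (log2 change 0.11, limma adjusted p 0.16). CAND1 was lower (log2 change -0.27, limma adjusted p 0.0087). CUL3, RBX1 and CAND1 are named here after their values were seen.

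HMOX1 encodes haem oxygenase 1, the inducible enzyme that opens the haem ring to biliverdin, carbon monoxide and iron. HMOX1 (ENSG00000100292, hg19 chr22:35776353-35790207) was at 8.79, 10.03 and 9.73 FPKM in KD, against 3.76, 4.25 and 4.03 FPKM in CTRL. The lowest KD library was above the highest CTRL library, and the ratio of means was 2.37. On the log2 scale it rose by 1.07 ± 0.08 (SE; limma adjusted p 6.2e-06), and 10.7% of tested genes changed by more in either direction. Despite this rise HMOX1 stayed the second-lowest of the 10 genes in both groups by listed level, above only PRDX1. Whether the PRDX1 value covers all its transcripts was not tested.

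Other genes of haem and iron handling were divided, with 4 higher, 4 lower and 1 not called of 9 tested. That is 44.4% in each direction, against 37.0% higher and 35.4% lower over all tested genes, and the median log2 change was 0.05, against 0.01. ALAS1, the first enzyme of haem synthesis outside the red cell lineage, averaged 112 ± 0.546 FPKM in KD and 48.5 ± 2.21 FPKM in CTRL (log2 change 1.19 ± 0.04, limma adjusted p 2.2e-07). FECH, the last enzyme of that pathway, averaged 7.24 ± 0.256 FPKM in KD and 19.4 ± 1.44 FPKM in CTRL (log2 change -1.31 ± 0.07, limma adjusted p 1.0e-06). FTL, the ferritin light chain, averaged 683 ± 21.9 FPKM in KD and 346 ± 31.9 FPKM in CTRL (log2 change 0.98 ± 0.07, limma adjusted p 3.9e-06). Ferritin genes have many near-identical pseudogenes, so the FTL value depends on how shared reads were assigned.

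NQO1 reduces quinones by a pair of electrons at once and is the enzyme most often read as a reporter of NRF2. NQO1 (ENSG00000181019, hg19 chr16:69740898-69760854) had the highest level of the 10 genes in every library, with 294, 298 and 296 FPKM in KD, against 279, 278 and 288 FPKM in CTRL. The groups did not overlap, yet the difference was small, a ratio of means of 1.05. The log2 change of 0.07 ± 0.03 was not called (limma adjusted p 0.078). It was called under median scaling (log2 change 0.10, limma adjusted p 0.038) and with a common sum (0.14, limma adjusted p 0.0051).

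Most other genes for quinone, carbonyl and drug handling were lower in KD. Of 16 tested, 12 fell and 4 rose, so all were called, where 72.4% of all tested genes were. That is 75% lower and 25% higher, against 35.4% and 37.0% of all tested genes. The median log2 change was -0.55, against 0.01 over all tested genes. CBR3, a carbonyl reductase, averaged 11.5 ± 0.563 FPKM in KD and 46.8 ± 1.51 FPKM in CTRL (log2 change -1.94 ± 0.05, limma adjusted p 1.0e-07). NQO2, the relative of NQO1 that uses another electron donor, averaged 11.2 ± 0.850 FPKM in KD and 36.2 ± 1.54 FPKM in CTRL (log2 change -1.61 ± 0.06, limma adjusted p 3.3e-07). TRIM16, a tripartite motif protein, averaged 18.8 ± 1.97 FPKM in KD and 5.89 ± 0.990 FPKM in CTRL (log2 change 1.53 ± 0.12, limma adjusted p 8.5e-06); it has the close paralog TRIM16L, and the split of shared reads is not known.

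The genes of glutathione synthesis did not move together. GCLC and GCLM encode the catalytic and the modifier subunit of glutamate-cysteine ligase, the rate-limiting enzyme of glutathione synthesis. GCLM (ENSG00000023909, hg19 chr1:94350760-94374966) was at 13.8, 13.6 and 14.0 FPKM in KD, against 12.3, 10.8 and 12.1 FPKM in CTRL. It was higher in every KD library, by 0.21 ± 0.06 on the log2 scale (limma adjusted p 0.014). GCLC (ENSG00000001084, hg19 chr6:53362138-53481969) was at 36.3, 36.1 and 34.7 FPKM in KD, against 41.6, 41.7 and 37.3 FPKM in CTRL. Its groups did not overlap either, with the log2 change at -0.17 ± 0.05 (limma adjusted p 0.024). That call was lost with a common sum (limma adjusted p 0.13) and without CTRL replicate 1 (0.067), CTRL replicate 2 (0.077), KD replicate 2 (0.050) or KD replicate 3 (0.078).

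Within a library, the ratio of GCLM to GCLC was 0.379, 0.376 and 0.404 in KD, against 0.296, 0.260 and 0.324 in CTRL. The KD ratios were all above the CTRL ratios, with means of 0.386 ± 0.015 in KD and 0.293 ± 0.032 in CTRL (SD, n = 3 each; exact two-sided permutation p = 0.1; 0.133 adjusted over the 4 ratios). In both groups the catalytic subunit thus had the higher level per length.

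**Figure D2:**
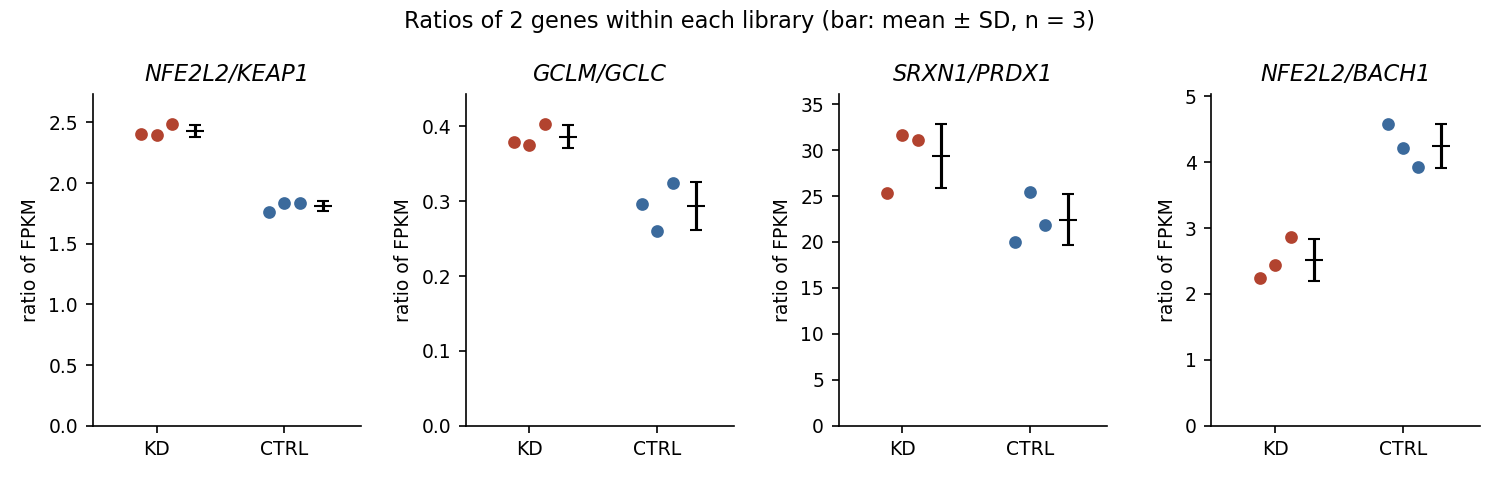
Ratio of FPKM of 2 genes within each library, KD left (red) and CTRL right (blue), with axes from 0 and black bars for the mean ± SD of 3 libraries. NFE2L2/KEAP1 (2.43 in KD, 1.81 in CTRL) and GCLM/GCLC (0.386 and 0.293) are higher in KD, NFE2L2/BACH1 (2.52 and 4.24) is lower, and SRXN1/PRDX1 overlaps.

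The promoters shown are those of members with a core antioxidant response element near their start. Of these members, GCLM and TXNRD1 were higher in KD and KEAP1 was not called. NFE2L2, also higher in KD, held no match, and no window was found for HMOX1. Whether the element bears on the changes was not tested. The motif searched was TGACNNNGC on both strands, in RefSeq windows (GRCh38.p14) of 250 bases before to 50 after each annotated start. Windows were found for 7 of the 10 genes, 10 windows in all, and 4 of them held a match, those of GCLM, KEAP1 (1 of 2 starts) and TXNRD1 (both starts). In the table as a whole, 13.3% of 35116 windows held it. The sequences run 5′ to 3′ along the gene from 250 bases before the start to 10 after it, with each match in capitals.
GCLM (chr1:93909421-93909680, minus strand): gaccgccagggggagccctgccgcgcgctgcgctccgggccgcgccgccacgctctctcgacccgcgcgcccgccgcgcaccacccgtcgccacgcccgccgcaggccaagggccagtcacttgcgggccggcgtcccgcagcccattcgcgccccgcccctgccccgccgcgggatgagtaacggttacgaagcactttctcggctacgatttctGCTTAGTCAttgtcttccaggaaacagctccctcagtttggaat
KEAP1 (chr19:10502762-10503021, minus strand): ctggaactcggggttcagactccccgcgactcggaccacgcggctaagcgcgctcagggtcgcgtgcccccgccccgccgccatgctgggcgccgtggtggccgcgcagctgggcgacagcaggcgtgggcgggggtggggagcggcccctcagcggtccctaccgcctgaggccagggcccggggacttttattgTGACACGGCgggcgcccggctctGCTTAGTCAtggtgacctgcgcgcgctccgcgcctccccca
TXNRD1, upstream start (chr12:104215529-104215788, plus strand): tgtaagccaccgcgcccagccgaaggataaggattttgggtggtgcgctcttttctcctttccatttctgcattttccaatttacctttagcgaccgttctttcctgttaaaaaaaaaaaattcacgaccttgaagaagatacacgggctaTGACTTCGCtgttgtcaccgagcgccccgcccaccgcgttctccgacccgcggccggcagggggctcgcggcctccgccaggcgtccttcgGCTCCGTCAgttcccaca
TXNRD1, downstream start (chr12:104286782-104287041, plus strand): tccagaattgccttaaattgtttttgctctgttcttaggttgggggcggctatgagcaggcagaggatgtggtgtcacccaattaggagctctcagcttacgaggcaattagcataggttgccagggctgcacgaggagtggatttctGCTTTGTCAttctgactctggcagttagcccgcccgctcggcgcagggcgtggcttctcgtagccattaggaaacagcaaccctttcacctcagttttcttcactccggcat

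GCLM and KEAP1 hold the same 9 letters, GCTTAGTCA as printed along the gene, which match the motif on the opposite strand. They begin 34 bases before the start in GCLM and 31 before it in KEAP1. The windows of NFE2L2, NQO1, GCLC and SRXN1 held no match, which says only that these letters are not in those windows. The share of genes with a match in any window was 20.0% among genes higher in KD, 19.6% among genes lower in KD and 20.0% among genes not called. A second motif, the AP-1 type TGANTCA, was in none of the 10 windows and in 7.71% of all windows.

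The thioredoxin branch was led by TXNRD1, which encodes the cytosolic thioredoxin reductase, a selenoprotein that keeps thioredoxin reduced with NADPH. TXNRD1 (ENSG00000198431, hg19 chr12:104609556-104744061) was at 216, 205 and 214 FPKM in KD, against 136, 137 and 143 FPKM in CTRL. The groups were well apart, with a ratio of means of 1.53. On the log2 scale it rose by 0.61 ± 0.04 (limma adjusted p 2.5e-06). The same listed locus holds RPL18AP3, a ribosomal protein pseudogene at 911 ± 58.8 FPKM in KD and 903 ± 45.5 FPKM in CTRL, and that level did not separate the groups beyond its spread. It also holds EID3, at 2.89 ± 0.191 FPKM in KD and 0.782 ± 0.184 FPKM in CTRL. RP11-818F20.5, listed there too, was at 0.0698 ± 0.0717 FPKM in KD and 0.182 ± 0.137 FPKM in CTRL. These neighbours are named here after their values were seen.

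SRXN1 encodes sulfiredoxin, which repairs overoxidised peroxiredoxins. SRXN1 (ENSG00000271303, hg19 chr20:627258-656823) was at 58.3, 58.0 and 59.7 FPKM in KD, against 57.2, 53.6 and 55.9 FPKM in CTRL. Every KD library was above every CTRL library by a small margin, and the log2 change of 0.08 ± 0.04 was not called (limma adjusted p 0.12), though it was with a common sum (0.15, limma adjusted p 0.011). The second row with this symbol was at 0.843 ± 0.548 FPKM in KD and 0.904 ± 0.923 FPKM in CTRL.

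PRDX1 encodes peroxiredoxin 1, an abundant cytosolic enzyme that removes hydrogen peroxide. PRDX1 (ENSG00000117450, hg19 chr1:45959537-45988719) was listed at 2.30, 1.83 and 1.92 FPKM in KD, against 2.86, 2.11 and 2.56 FPKM in CTRL, the lowest level of the 10 genes. The values overlapped, and the log2 change of -0.21 ± 0.12 was not called (limma adjusted p 0.14). The other peroxiredoxins were listed far higher, for example PRDX2 at 169 ± 3.57 FPKM in KD and 311 ± 15.0 FPKM in CTRL; PRDX2 is named here after its values were seen. The PRDX1 locus is shared with MMACHC and CCDC163P, at 2.58 ± 0.0519 and 1.20 ± 0.138 FPKM in KD and 5.16 ± 0.232 and 1.28 ± 0.150 FPKM in CTRL. Whether the listed value covers all PRDX1 transcripts was not tested. The ratio of SRXN1 to PRDX1, 29.4 ± 3.50 in KD and 22.4 ± 2.76 in CTRL (SD, n = 3 each), overlapped between the groups (exact two-sided permutation p = 0.2) and rests on that low level.

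In the rest of the thioredoxin and peroxiredoxin system, 9 of 15 genes fell, 4 rose and 2 were not called. That is 60% lower and 26.7% higher, against 35.4% and 37.0% of all tested genes. The median log2 change was -0.31, against 0.01 over all tested genes. The largest falls were of the methionine sulfoxide reductases MSRB2 and MSRB3 and of TXNRD3, a thioredoxin reductase best known from testis. MSRB2 averaged 12.03 ± 0.787 FPKM in KD and 30.5 ± 3.88 FPKM in CTRL (log2 change -1.27 ± 0.09, limma adjusted p 6.8e-06). TXNRD3 averaged 4.11 ± 0.693 FPKM in KD and 9.46 ± 0.585 FPKM in CTRL (log2 change -1.04 ± 0.11, limma adjusted p 4.1e-05), and MSRB3 averaged 4.74 ± 0.451 FPKM in KD and 11.3 ± 1.80 FPKM in CTRL. Among enzymes that remove superoxide and hydrogen peroxide, 2 rose and 2 fell of 4 tested, where 37.0% of all tested genes rose and 35.4% fell. SOD1, the cytosolic superoxide dismutase, averaged 183 ± 1.69 FPKM in KD and 276 ± 10.9 FPKM in CTRL, whereas CCS, its copper chaperone, averaged 22.8 ± 0.646 FPKM in KD and 18.6 ± 1.30 FPKM in CTRL. CAT, the catalase, averaged 13.8 ± 1.25 FPKM in KD and 20.8 ± 0.750 FPKM in CTRL.

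Recycling of glutathione was represented by GSR, the NADPH-dependent glutathione reductase. GSR (ENSG00000104687, hg19 chr8:30535582-30585443) was at 59.0, 61.7 and 62.4 FPKM in KD, against 68.2, 67.3 and 72.9 FPKM in CTRL. All KD libraries lay below all CTRL libraries, with a log2 change of -0.18 ± 0.05 (limma adjusted p 0.0069). With a common sum the change was -0.11 and was not called (limma adjusted p 0.072).

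Of 30 other tested glutathione genes, 17 fell, 4 rose and 9 were not called, with a median log2 change of -0.30, against 0.01 over all tested genes. The share called, 70%, was near the 72.4% of all tested genes, while 56.7% were lower, against 35.4% of all tested genes. GSS, which completes glutathione synthesis after the ligase, averaged 20.3 ± 0.580 FPKM in KD and 62.6 ± 3.10 FPKM in CTRL (log2 change -1.58 ± 0.05, limma adjusted p 1.5e-07). Its fall was larger than the change of either subunit of the ligase. GSTT2, a glutathione transferase with a near-identical copy in the genome, averaged 1.94 ± 0.412 FPKM in KD and 11.7 ± 0.419 FPKM in CTRL (log2 change -2.12 ± 0.11, limma adjusted p 9.3e-07), and its reads may be split with that copy. CHAC1, which degrades glutathione, averaged 6.003 ± 0.158 FPKM in KD and 0.787 ± 0.196 FPKM in CTRL (log2 change 1.98 ± 0.11, limma adjusted p 1.5e-06).

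NADPH feeds both GSR and TXNRD1. Of 7 genes listed for its supply, not all of which make it directly, 5 fell, 0 rose and 2 were not called. Their median log2 change was -0.36, against 0.01 over all tested genes. The share called, 71.4%, was again near the 72.4% of all tested genes. All of these calls were falls, so 71.4% were lower and 0% higher, against 35.4% and 37.0% of all tested genes. PGD, a dehydrogenase of the pentose phosphate pathway, averaged 49.2 ± 1.43 FPKM in KD and 89.2 ± 4.45 FPKM in CTRL (log2 change -0.84 ± 0.05, limma adjusted p 1.7e-06). TKT, a transketolase of the same pathway, averaged 239 ± 4.70 FPKM in KD and 373 ± 13.8 FPKM in CTRL (log2 change -0.64 ± 0.04, limma adjusted p 2.2e-06).

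Over the 7 lists together, 97 of 115 genes were tested, of which 30 rose (30.9%) and 51 fell (52.6%), against 37.0% and 35.4% of all tested genes. Falls were as many as or more than rises in each list except the regulators and partners of NRF2. With a common sum, haem and iron handling was a further exception, with 4 rises and 3 falls.

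**Figure D3:**
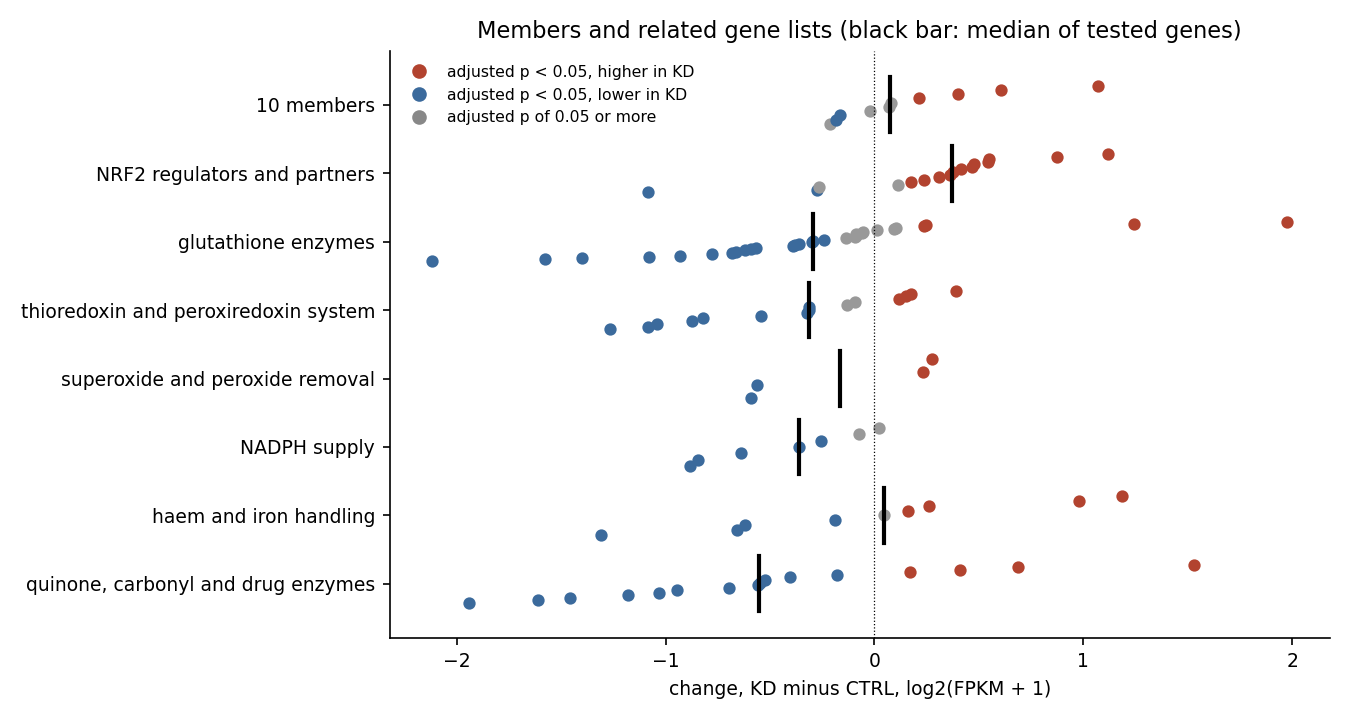
Change of each tested gene (KD minus CTRL, log2(FPKM + 1)) for the 10 genes and the 7 related lists; points are genes, red and blue mark calls at an adjusted p under 0.05 and black bars mark medians. The median is 0.37 for regulators and partners and -0.55 for quinone, carbonyl and drug enzymes.

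**Figure D4:**
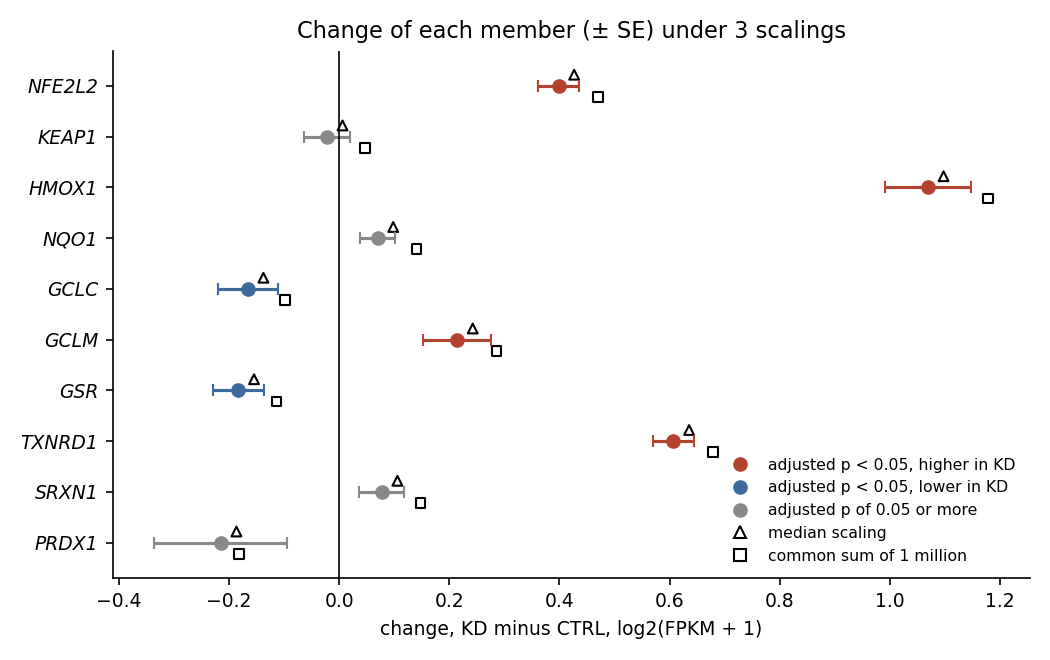
Change of each of the 10 genes (KD minus CTRL, log2(FPKM + 1), ± SE of the fit), with open symbols for median scaling and for a common sum. Both scalings shift every gene upward, so the falls of GCLC and GSR shrink to -0.10 and -0.11 with a common sum while HMOX1 (1.07) stays far from 0.

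In both groups the order of listed levels was the same, from NQO1 through TXNRD1, NFE2L2, GSR, SRXN1, KEAP1, GCLC, GCLM and HMOX1 to PRDX1. Neighbours in that order were separated beyond the range of their libraries in each group, except GSR and SRXN1 in KD, whose values overlapped. The tested genes with profiles nearest to NFE2L2, by Euclidean distance of centred log2 values over the 6 libraries, were TBC1D20 (distance 0.034), SF3B14 (0.045) and CHD3 (0.048). With 2 groups of libraries such likeness is common, as 2649 tested genes correlated with NFE2L2 at r above 0.95.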

How the data were processed

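RNA-seq of 3 KD and 3 CTRL libraries of MDA-MB-435 was analysed, grouped by title. Per the labels' protocols, stranded mRNA libraries were made from total RNA and read as pairs. The deposited table gives the authors' FPKM per gene and library; the submitters' processing notes list hg19, TopHat 1.4.1 and Cuffdiff 2.2.0, with no roles. The sources used here give no annotation, filter or scaling. A blank row was left out, and every value column belonged to a sample.

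The 13343 genes averaging 1 FPKM or more were fitted as log2(FPKM + 1) with limma 3.58.1 in R 4.3.3 (trend, two-sided, Benjamini-Hochberg over all tested genes, threshold 0.05), which understates changes of low genes. Ratios used an exact permutation test. The fit was tested on simulated data. Steps among values under 0.2 FPKM put the worth of 1 fragment within 1.26 times across libraries; absolute depth is unknown.

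The 10 members, the 7 lists and the tests were chosen with earlier results of these data known. Named genes were the members, ZCCHC24, BACH1, up to 3 called genes with the largest change per list, the 3 genes nearest to NFE2L2, and members with a promoter match. A gene that this rule names is not reported here. Alternatives were another pseudocount, filters, scalings, quality weights, a replicate block, summed rows and leaving out each library. Promoter sequences are RefSeq's (GRCh38.p14), and no coordinate was moved between builds.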

Additional observations from a re-analysis of the deposited data

How the results depend on the processing

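Of the 14 refits, each changing 1 choice, none turned the direction of a called member. Rescaling to a common sum lifted the median change of all tested genes from 0.01 to 0.08 and median scaling to 0.04. With a common sum the members had 0 falls, and KEAP1 changed sign (log2 change 0.047; 0.0062 under median scaling); both follow from the upward shift that the rescaling makes. Leaving out 1 library gave 1 to 2 falls among the members, since GCLC was not called without CTRL replicate 1, CTRL replicate 2, KD replicate 2 or KD replicate 3; KEAP1 ran from -0.045 to 0.0013, the positive value without CTRL replicate 1. Rises in the thioredoxin list numbered 2 without the filter on low values, and 2 to 4 with 1 library left out (2 without CTRL replicate 2 or KD replicate 1); the cause was not tested. At a filter of 5 FPKM, PRDX1 and a few list genes were not tested. Deviations from the group means correlated at -0.03, -0.07 and 0.02 between KD and CTRL libraries of 1 number, so the numbers were not taken as pairs; with a replicate block the members still had 4 rises and 2 falls, and all tested genes 4971 rises and 4773 falls. The NFE2L2/KEAP1 log2 difference was 0.41 to 0.44, GCLM/GCLC 0.32 to 0.48 and NFE2L2/BACH1 -0.86 to -0.68 with 1 library left out. Absolute depth is unknown, so no limit can be set for genes listed at 0.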

Other observations

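Among the list genes with a mean under 1 FPKM, several human genes known as NRF2 targets were lower in KD; they are named after their values were seen. Of 18 such genes, 3 were listed at 0 throughout, and in the fit without a filter 7 of the other 15 were lower and 0 higher. Of the 27469 genes in that fit, 37.9% were called in either direction, 5443 higher and 4973 lower. These include the 13343 genes averaging 1 FPKM or more, of which 72.4% were called in the main fit. The 37.9% is therefore not the share for genes under 1 FPKM, which was not computed. AKR1C1, an aldo-keto reductase, was at 0.0399, 0.125 and 0.0169 FPKM in KD, against 0.562, 0.712 and 0.591 FPKM in CTRL (log2 change -0.61 ± 0.06, limma adjusted p 0.00043). Its relative AKR1C3 was at 0.243, 0.454 and 0.350 FPKM in KD, against 1.15, 1.55 and 1.19 FPKM in CTRL (log2 change -0.77 ± 0.10, limma adjusted p 0.0017). Genes of this family are near-identical in sequence, so the split of reads between them is uncertain. ABCG2, a drug exporter, was at 0.144, 0.118 and 0.189 FPKM in KD, against 1.00, 0.808 and 0.983 FPKM in CTRL (log2 change -0.75 ± 0.06, limma adjusted p 0.00025). At these levels the change on log2(FPKM + 1) understates the difference, and the number of fragments behind a value is unknown.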
